A study of Mus musculus with 4 samples.

Results

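The 10 genes described here belong to the NRF2 and glutathione antioxidant system, and were measured by RNA sequencing in cultured macrophages that had been raised from mouse bone marrow. They were taken by symbol: Nfe2l2, Keap1, Slc7a11, Gclc, Gclm, Gsr, Txnrd1, Srxn1, Prdx1 and Nqo1, and each of these 10 had a row among the 23284 genes of the files. The cells were either control (Spic+/+) or Spic-/-. All of them had been given hemin (oxidised heme; 40 µM in the protocol text, although the sample descriptions print mM) for 18 h. They were then kept for 4 h with or without 100 ng/ml lipopolysaccharide (LPS), a cell wall component of Gram-negative bacteria that macrophages sense through Toll-like receptors. The sample titles name the mutant as a conditional knockout, and neither a Cre driver, the age or strain of the mice, nor pooling of animals is given in the labels. Every culture had received hemin, so no value here describes macrophages without heme loading. Each of the 4 combinations was 1 library, so no group has a replicate, and no test was run.

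NRF2, the product of Nfe2l2, is a transcription factor that KEAP1 holds in the cytoplasm and delivers for degradation. Electrophiles and oxidants modify KEAP1, after which NRF2 enters the nucleus, pairs with small MAF proteins and binds antioxidant response elements. Heme also releases the repressor BACH1 from such elements, and hemin is a known inducer of this system in macrophages. The target genes supply cystine for glutathione, make and recycle glutathione, and run the thioredoxin and peroxiredoxin cycle that removes peroxides.

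The 10 genes ranged widely in their ratio with LPS, and each had a similar ratio in the control and the knockout libraries. Slc7a11, Txnrd1, Nfe2l2 and Gsr stood at least 2-fold higher with LPS in each genotype, Srxn1, Prdx1 and Keap1 stood higher by less than 2-fold, and Gclm and Gclc slightly lower. For Nqo1 the counting interval included no difference. Between genotypes no member reached 1.5-fold in either LPS state, as was true of most genes (1.75% of all genes were higher in knockout and 1.37% lower without LPS, and 2.86% and 1.69% with LPS). Gclm, Nqo1 and Srxn1 stood at 77.7% to 81.4% of control in each.

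The promoters of members past 2-fold with LPS are shown because antioxidant, AP-1, ATF4 and PU box strings in them can be set beside the values that follow. RefSeq promoters (GRCm38.p6) were matched for 8 of the 10 members, with 3 starts for Txnrd1; Gclc and Gsr were not matched. The 250 bases before each start were searched on both strands for TGACNNNGC (core of the antioxidant response element), TGANTCA (AP-1, its own reverse complement), TGATGNAA (ATF4 with C/EBP), GAGGAA (core of the PU box, a type of site bound by PU.1 and Spi-C) and an NF-kB string. Sequences are printed 5′ to 3′ on the gene's strand with matches in capitals, up to the first base that GENCODE vM21 places in an exon of the gene. The stretches are chr3:50443615-50443863 (minus strand) for Slc7a11, chr2:75704664-75704913 (minus strand) for Nfe2l2 and chr10:82858956-82859178 (plus strand) for the second start of Txnrd1. The stretches of Slc7a11 and Txnrd1 lie within the RefSeq spans of these genes, so neither is at the outer end of its span. The second Txnrd1 start was chosen among the 3 for its antioxidant match.
Slc7a11: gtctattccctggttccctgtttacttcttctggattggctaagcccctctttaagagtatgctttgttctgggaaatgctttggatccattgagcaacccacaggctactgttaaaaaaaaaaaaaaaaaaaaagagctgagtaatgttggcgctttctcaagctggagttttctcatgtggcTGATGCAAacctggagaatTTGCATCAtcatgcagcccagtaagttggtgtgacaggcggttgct
Nfe2l2: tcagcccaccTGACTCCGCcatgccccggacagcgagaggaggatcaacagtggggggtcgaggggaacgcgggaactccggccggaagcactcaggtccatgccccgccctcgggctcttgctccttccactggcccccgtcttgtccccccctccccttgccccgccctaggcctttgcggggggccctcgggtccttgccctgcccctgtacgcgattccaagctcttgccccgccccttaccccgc
Txnrd1: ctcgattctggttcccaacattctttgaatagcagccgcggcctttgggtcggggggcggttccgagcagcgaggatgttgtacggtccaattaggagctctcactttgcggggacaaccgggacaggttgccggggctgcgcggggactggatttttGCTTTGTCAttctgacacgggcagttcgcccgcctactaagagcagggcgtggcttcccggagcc

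In the Slc7a11 stretch the capitals are a pair of ATF4 and C/EBP strings on opposite strands, 66 to 59 and 47 to 40 bases before the start. This string was in 3.45% of 32851 promoter windows of the same length, and in the window of no other matched member. The antioxidant core was in 10.2% of all windows and in 4 members: Nfe2l2, Gclm, Prdx1 and the second start of Txnrd1. Srxn1 and Prdx1 held the AP-1 string (6.75% of all windows), and in Prdx1 1 of its 2 AP-1 matches lies inside the antioxidant match. The PU box core was in windows of Prdx1 and of the first start of Txnrd1 (23.3% of all), and the NF-kB string in none of the matched members (1.41% of all). Windows with the antioxidant core thus belonged both to members that stood higher with LPS and to Gclm, which stood slightly lower. These are matches of letters, not sites shown to be bound, and the gene values do not tell which Txnrd1 start was used.

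Spic, the targeted gene, stood at 53.1 FPKM in control and 15 FPKM in knockout without LPS, and at 406 and 80.8 FPKM with LPS. FPKM is a level per kilobase of transcript, scaled to the library. Knockout Spic was thus 28.2% and 19.9% of control, and which exons the allele removes is not given. The libraries differed in depth: by the spacing of their low values, a level of 1 FPKM corresponds to between 8.01 (knockout, LPS) and 15.5 (control, no LPS) fragments for each kilobase. Folds are ratios of FPKM with exact (Clopper-Pearson) 95% intervals, which cover counting error only and not variation between cultures. Log2 ratios are of (FPKM + 1), which understates differences of low genes. All 9 macrophage markers found, Csf1r, Cd68 and Emr1 among them, were above 1 FPKM in every library. Their sum was 8243 and 10829 FPKM in control and 6374 and 9532 FPKM in knockout, without and with LPS, and Lyz2 was the largest part of it without LPS. Without Lyz2 the other 8 summed to 1902 and 5208 FPKM in control and 2360 and 6114 FPKM in knockout, and 7 of the 8 were higher in knockout in each LPS state. Stromal and endothelial markers summed to 673 and 712 FPKM in control and 355 and 401 FPKM in knockout. Of these 12, 8 reached 1 FPKM in each library, with Acta2 highest, and Thy1, Lum, Pecam1 and Cdh5 did not. The 8 neutrophil markers summed to 41.6 and 242 FPKM in control and 31.7 and 132 FPKM in knockout, mostly S100a8 with LPS, while Mpo was listed at 0 throughout and Elane, Ltf and Cxcr2 were under 1 FPKM. The part of these markers in the LPS ratios below was not tested. Every dendritic cell, lymphocyte and erythroid marker was under 1 FPKM. In RNA from whole cultures, fewer cells of a type and less RNA per cell cannot be told apart.

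Nfe2l2, the gene of NRF2 itself (chromosome 2, 75675513 to 75704663, RefSeq, GRCm38.p6), stood higher with LPS. Control cells had 63.5 FPKM of it without LPS and 201 FPKM with LPS. Knockout cells had 72.2 and 227 FPKM. Both LPS libraries lay above both libraries without LPS. The fold with LPS was 3.17 in control (interval 3.01 to 3.33) and 3.15 in knockout (2.98 to 3.32), log2 ratios of 1.65 and 1.64.

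Keap1, which encodes the adaptor that marks NRF2 for degradation (chromosome 9, 21229730 to 21239332), differed less. It stood at 22.2 and 27.0 FPKM in control and at 21.7 and 26.9 FPKM in knockout, without and with LPS in this order. The folds with LPS were 1.22 (1.09 to 1.37) and 1.24 (1.09 to 1.42), below 2-fold in each genotype. The FPKM of Nfe2l2 was 2.87 times that of Keap1 in control without LPS and 7.44 times with LPS, and 3.34 and 8.44 times in knockout. Transcript levels do not show the amount of NRF2 protein, which is set mainly by its degradation.

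Slc7a11, which encodes the transport subunit xCT of the cystine and glutamate exchanger, had the widest range of all members. Its RefSeq span is chromosome 3, 50364936 to 50499087. Control cells had 1.53 FPKM of it without LPS and 109 FPKM with LPS. Knockout cells had 2.18 and 117 FPKM. It was therefore the lowest member without LPS and the fourth from the bottom with LPS, above Gclc, Keap1 and Nqo1, moving from rank 9872 to rank 957 of 23284 genes in control and from 9272 to 968 in knockout. The fold with LPS was 71.4 in control (54.7 to 96.6) and 53.8 in knockout (42.1 to 70.9), and the intervals overlap. They rest on about 52.4 and 62.4 fragments in the libraries without LPS, counted for the shorter of its 2 coding transcripts. The log2 ratios were 5.45 and 5.22 with 1 FPKM added, and 6.07 and 5.69 with 0.1 FPKM or 4.13 and 4.09 with 5 FPKM.

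The exchanger also needs the heavy chain CD98, encoded by Slc3a2, which was abundant already without LPS. Slc3a2 stood at 706 and 921 FPKM in control and at 578 and 871 FPKM in knockout, without and with LPS. Its log2 ratios with LPS were 0.38 in control and 0.59 in knockout, beside 5.45 and 5.22 for Slc7a11. Slc3a2 also pairs with other transporters.

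Gclc and Gclm encode the catalytic and the modifier subunit of glutamate-cysteine ligase, the rate-limiting enzyme of glutathione synthesis. Gclc (chromosome 9, 77754535 to 77794489) stood at 32.1 and 28.4 FPKM in control and at 30.5 and 27.0 FPKM in knockout, without and with LPS. Gclm (chromosome 3, 122245487 to 122267215) stood at 424 and 394 FPKM in control and at 338 and 311 FPKM in knockout. Neither approached 2-fold with LPS: the folds were 0.886 (0.817 to 0.96) and 0.93 (0.89 to 0.972) in control, and 0.885 (0.805 to 0.971) and 0.921 (0.871 to 0.973) in knockout. Per length, Gclm was 13.2 and 13.9 times as high as Gclc in control and 11.1 and 11.5 times in knockout. Slc7a11 was thus much higher with LPS, while the transcripts of both ligase subunits were slightly lower. The intervals of the ligase genes leave out variation between cultures.

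Gsr, which encodes glutathione reductase, the enzyme that regenerates glutathione with NADPH, was higher with LPS (chromosome 8, 33653238 to 33698162). It stood at 78.4 and 188 FPKM in control and at 74.4 and 189 FPKM in knockout. The LPS libraries lay above the others, with folds of 2.40 (2.29 to 2.51) and 2.55 (2.42 to 2.68). Txnrd1, the cytosolic thioredoxin reductase (chromosome 10, 82833951 to 82897724), stood at 143 and 504 FPKM in control and at 140.4 and 504 FPKM in knockout. Its folds were 3.52 (3.40 to 3.64) and 3.59 (3.45 to 3.73), the largest after Slc7a11. Glutathione reductase and cytosolic thioredoxin reductase were thus past 2-fold, while the ligase subunits were not, nor was the mitochondrial thioredoxin reductase gene Txnrd2 (log2 ratios of −0.22 and −0.32). Another gene with a row in the files, Eid3, lies within the span of Txnrd1 on the same strand.

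**Figure D1:**
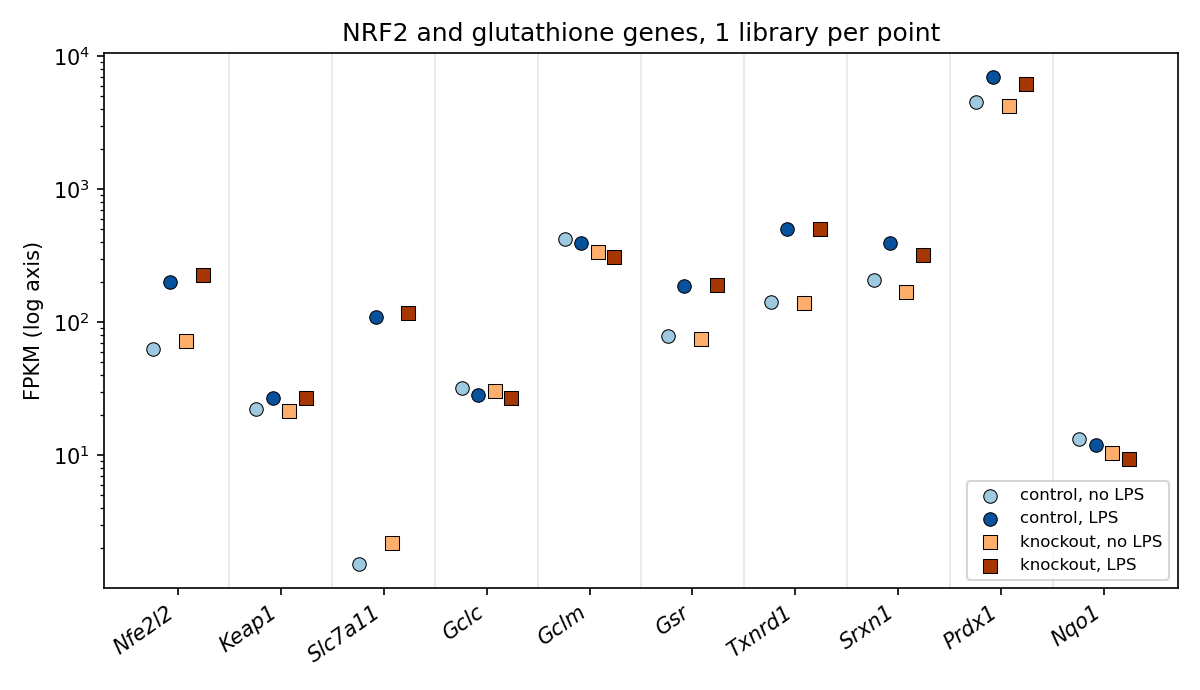
FPKM of the 10 members on a log axis, with 1 point per library: circles for control and squares for knockout, light without LPS and dark with LPS. Slc7a11 lies at 1.53 and 2.18 FPKM without LPS and at 109 and 117 FPKM with LPS, and the dark points of Nfe2l2, Gsr, Txnrd1, Srxn1 and Prdx1 lie above the light ones in both genotypes.

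Prdx1 and Srxn1 belong to the peroxide-removing arm: peroxiredoxin 1 reduces peroxides, and sulfiredoxin restores peroxiredoxins that have been overoxidised. Prdx1 (chromosome 4, 116685599 to 116700000) was by far the most abundant member, with 4529 and 6958 FPKM in control and 4248 and 6178 FPKM in knockout. It ranked 6, 9, 6 and 13 among all genes in control without and with LPS and knockout without and with LPS, and made up 78.1% to 83.2% of the summed FPKM of the 10 members. The folds with LPS were 1.54 (1.52 to 1.56) and 1.45 (1.43 to 1.48). Srxn1 (chromosome 2, 152105524 to 152111376) stood at 207 and 397 FPKM in control and at 169 and 322 FPKM in knockout. Its folds, 1.92 (1.86 to 1.97) and 1.91 (1.84 to 1.98), ended just short of 2.

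Nqo1, the gene of the quinone reductase often used as a readout of NRF2, had the second lowest level without LPS and the lowest with LPS (chromosome 8, 107388225 to 107403205). It stood at 13.3 and 11.9 FPKM in control and at 10.3 and 9.41 FPKM in knockout. The folds with LPS were 0.895 (0.734 to 1.09) and 0.909 (0.704 to 1.16), and the counting intervals include 1. The Nqo1 ratios were thus within counting error, and variation between cultures was not measured for any member.

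Of the 10 members, 4 passed 2-fold upward in control and none downward. Among all 8050 genes that reached 5 FPKM in either library, 12.3% were higher and 6.50% lower. In knockout the same 4 members were higher and none lower, against 13.7% and 7.74% of 8098 genes. The median log2 ratio of the members was 0.78 in control and 0.73 in knockout, beside 0.11 and 0.12 for all genes. Upper-quartile scaling lowered the median of all genes to −0.07 and −0.06, which brought the share of higher genes among those past 2-fold from 65.5% to 52.9% in control and from 63.9% to 51.3% in knockout. Under it the 4 members stayed past 2-fold, with Gsr nearest to it at log2 ratios of 1.08 and 1.15, and no member took the other sign. The summed FPKM of all genes was also higher with LPS, at 500123 and 736818 in control and 525348 and 819232 in knockout. The 10 members made up 1.1% and 1.2% of this sum in control and 0.972% and 0.966% in knockout. Scaling to the sum was not run, and it would lower every LPS ratio, that of Gsr to under 2-fold. Keap1 in each genotype and Prdx1 in knockout would then stand lower with LPS rather than higher. At a 3-fold threshold 3 members were left in each genotype: Nfe2l2, Txnrd1 and Slc7a11.

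The responses of the 2 genotypes were set side by side. The log2 ratio with LPS in knockout less that in control ranged from −0.23, for Slc7a11, to 0.09, for Gsr, with a median of 0.00. That of Slc7a11 depended on the pseudocount, at −0.38 with 0.1 FPKM added and −0.04 with 5 FPKM, while the other 9 stayed between −0.08 and 0.09. Over 8272 genes the central 95% of such differences ran from −0.49 to 0.47. With 1 library per group these differences have no error of their own.

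**Figure D2:**
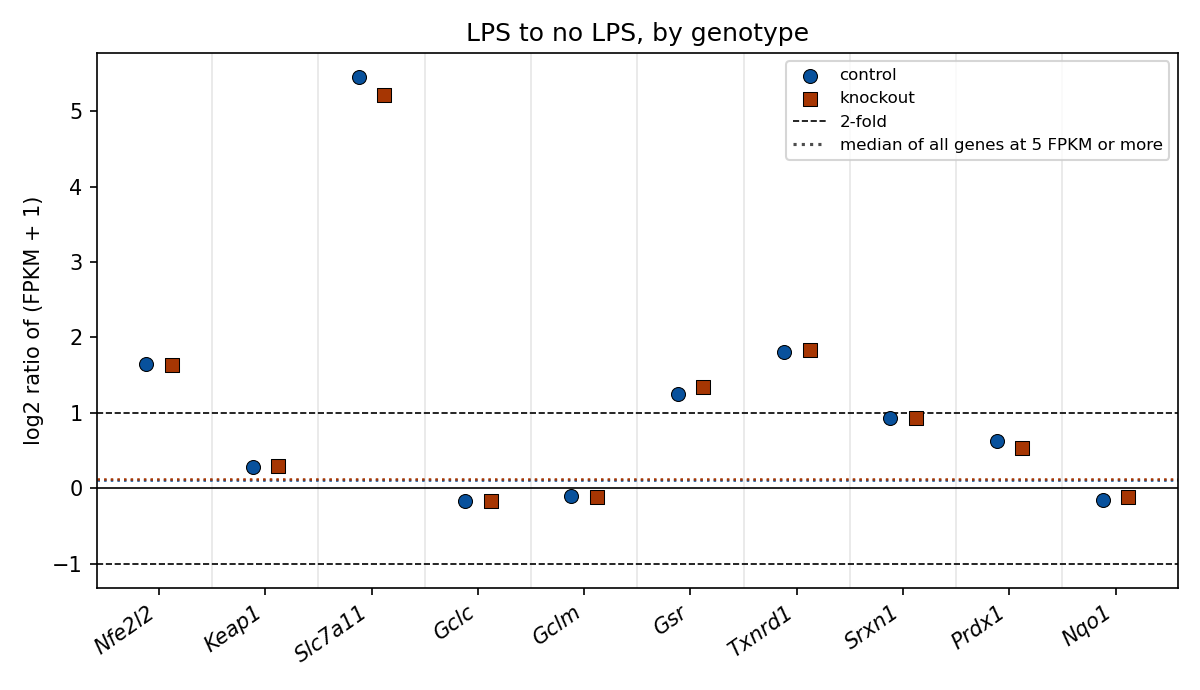
Log2 ratio of (FPKM + 1), LPS to no LPS, for each member in control (circles) and knockout (squares); dashed lines mark 2-fold and dotted lines the medians of all genes, 0.11 and 0.12. Slc7a11, Txnrd1, Nfe2l2 and Gsr lie above the upper dashed line in both genotypes, Srxn1 lies just under it at 0.93, and Gclc, Gclm and Nqo1 lie below 0.

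Between genotypes the members differed little. Without LPS, 0 of the 9 members that reached 5 FPKM in at least 1 of the 2 libraries were at least 1.5-fold higher or lower in knockout. Slc7a11 was under that minimum. Of 7762 genes 1.75% were higher and 1.37% lower by this rule. With LPS, 0 of 10 members passed in either direction, against 2.86% and 1.69% of 7509 genes. The members' median log2 ratio was −0.07 without LPS and −0.04 with LPS, beside 0.07 and 0.09 for all genes. Upper-quartile scaling moved higher genes from 56.2% to 40.6% of those past 1.5-fold without LPS and from 62.9% to 43.7% with LPS.

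The lowest knockout to control ratios belonged to Gclm, Nqo1 and Srxn1, in both LPS states. Knockout Gclm was 79.7% of control without LPS (0.763 to 0.832 as a fold) and 78.9% with LPS (0.746 to 0.834). Srxn1 was at 81.4% (0.787 to 0.842) and 81.1% (0.787 to 0.836). Nqo1 was at 77.7% (0.641 to 0.942) and 78.9% (0.611 to 1.02), and its second interval includes 1. In all 3 genes both knockout libraries lay below the control library of the same LPS state. Their log2 ratios were −0.30 to −0.34. Over 7762 genes without LPS the central range, taken as for the LPS responses above, ran from −0.37 to 0.49. Over 7509 genes with LPS it ran from −0.49 to 0.60. All 3 genes thus lay inside the spread of all genes in each LPS state. Their intervals cover counting error only, so a genotype difference beyond variation between cultures is not shown. The summed stromal markers (673 and 712 FPKM in control, 355 and 401 FPKM in knockout) and Lyz2 (6340 and 5620 FPKM in control, 4014 and 3419 FPKM in knockout) were lower in the same knockout libraries, whereas 7 of the other 8 macrophage markers were higher there. The part of these markers in the values was not tested.

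Nfe2l2 stood slightly higher in knockout, at a fold of 1.14 (1.07 to 1.21) without LPS and 1.13 (1.08 to 1.18) with LPS. As log2 ratios these are 0.18 and 0.17, beside 0.07 and 0.09 for the median of all genes. Keap1 was at folds of 0.977 (0.87 to 1.09) and 0.995 (0.875 to 1.13), Txnrd1 at 0.98 (0.939 to 1.02) and 1 (0.972 to 1.03), Gsr at 0.948 (0.898 to 1.001) and 1.01 (0.966 to 1.05), and Gclc at 0.951 (0.882 to 1.02) and 0.95 (0.86 to 1.05). For these 4 genes all intervals include 1, and under upper-quartile scaling the log2 ratios of Txnrd1 and Gsr with LPS were −0.09 and −0.08. Slc7a11 was at 1.43 (0.971 to 2.11) without LPS, where few fragments leave the interval wide, and at 1.08 (1.01 to 1.14) with LPS. Prdx1 was at 0.938 (0.925 to 0.951) and 0.888 (0.876 to 0.90).

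**Figure D3:**
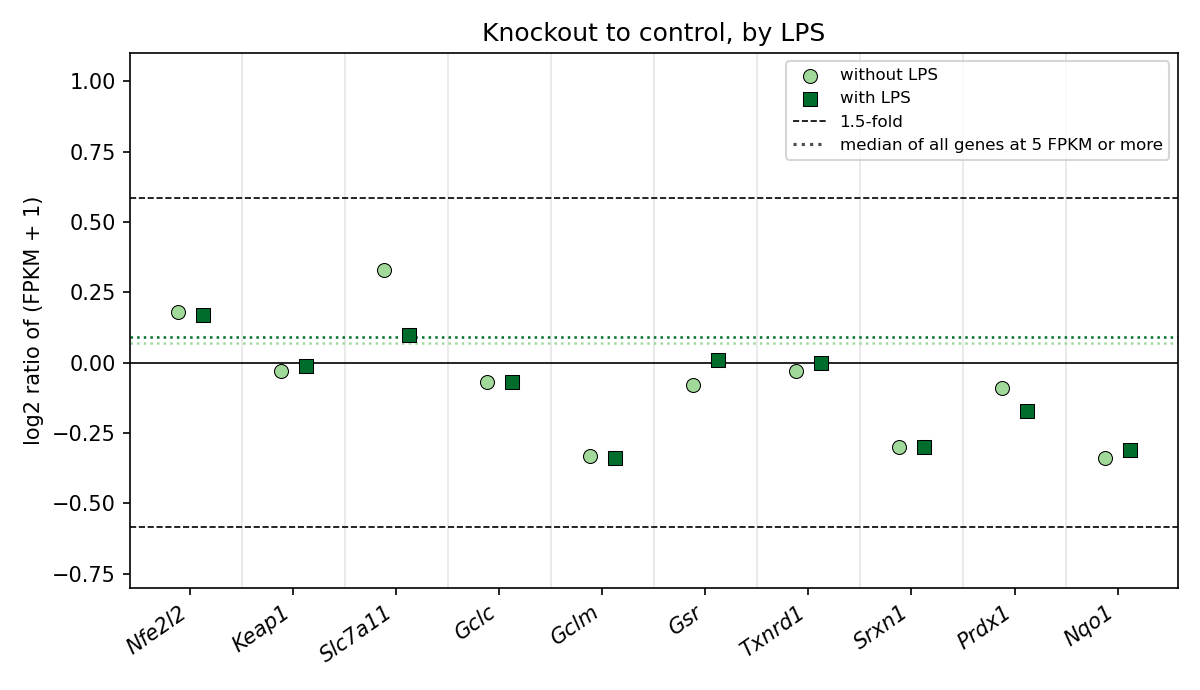
Log2 ratio of (FPKM + 1), knockout to control, for each member without LPS (circles) and with LPS (squares); dashed lines mark 1.5-fold and dotted lines the medians of all genes, 0.07 and 0.09. All points lie between the dashed lines, with Gclm, Nqo1 and Srxn1 lowest at −0.30 to −0.34 in both LPS states.

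The genes around the members were described by 6 lists, chosen with earlier results of these data known. Over their distinct genes, 9.76% were 2-fold higher and 6.1% lower with LPS in control (82 genes) and 11% and 7.32% in knockout (82 genes), close to or below the shares of all genes (12.3% and 6.50%, and 13.7% and 7.74%). Partners and regulators of NRF2 had medians of 0.73 in control and 0.81 in knockout over 8 genes at 5 FPKM or more. Upper-quartile scaling put these medians at 0.56 and 0.63. Of the 8 genes, Maff and Sqstm1 passed 2-fold in each genotype and none was lower. Maff, 1 of the small MAF partner genes, stood at 5.02 and 61.2 FPKM in control and at 5.29 and 68.7 FPKM in knockout. Sqstm1, whose product p62 draws KEAP1 into autophagy, stood at 1199 and 4683 FPKM in control and at 1080 and 4779 FPKM in knockout. The gene of the repressor BACH1 was at 20.7 and 29.6 FPKM in control and at 18.8 and 21.0 FPKM in knockout. The other small MAF genes listed, Mafg and Mafk, were under 2-fold. Their log2 ratios were 0.72 and 0.74 in control and 0.77 and 0.91 in knockout. Mafg was the most abundant small MAF gene, at 47.5 and 78.7 FPKM in control and 41.7 and 71.6 FPKM in knockout. Nfe2l1, the gene of the related factor NRF1, was also under 2-fold, at 0.74 in control and 0.85 in knockout.

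Next came the other genes of glutathione synthesis and use. In control 3 of 17 genes passed 2-fold upward and none downward with LPS, and of 19 in knockout again 3 and none, with medians of −0.08 and −0.09. The shares of all genes were 12.3% higher and 6.5% lower in control, and 13.7% and 7.74% in knockout. Ggct, which encodes γ-glutamylcyclotransferase, the glutathione S-transferase gene Gstt1 and Abcc1, an exporter of glutathione conjugates, were those 3 in each genotype. Ggct stood at 3.60 and 10.1 FPKM in control and at 3.21 and 12.6 FPKM in knockout, and Abcc1 at 75.0 and 163 FPKM in control and 76.9 and 178 FPKM in knockout. With 5 FPKM added, Gstt1 (0.81) and Ggct (0.81) were under 2-fold in control, as was Abcc1 (0.94) after upper-quartile scaling. The glutathione synthetase gene Gss, which acts after the ligase, stood at 12.7 and 10.9 FPKM in control and at 11.7 and 9.70 FPKM in knockout. The glutathione peroxidase genes Gpx1 and Gpx4 had log2 ratios of −0.65 and −0.32 in control.

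Among 13 thioredoxin and peroxiredoxin genes, 1 passed 2-fold upward and 1 downward in control, and 2 and 1 did so in knockout, with medians of −0.14 and −0.02. Over all genes 12.3% passed upward and 6.5% downward in control, and 13.7% and 7.74% in knockout. Prdx5, a peroxiredoxin found in mitochondria and peroxisomes, was higher in both, at 372 and 1818 FPKM in control and at 541 and 2221 FPKM in knockout. The methionine sulfoxide reductase gene Msrb2 was lower in both, at 9.57 and 2.30 FPKM in control and 9.04 and 2.40 FPKM in knockout, although with 5 FPKM added its knockout ratio was −0.92. Txnl1 was past 2-fold in knockout at 1.09 and just under it in control at 0.94; after upper-quartile scaling its knockout ratio was 0.91. Thioredoxin itself, Txn1, the substrate of Txnrd1, stood at 407 and 702 FPKM in control and at 431 and 696 FPKM in knockout.

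Glutathione and thioredoxin reductase draw on NADPH. The list for its supply held 13 genes, among them pentose phosphate genes such as Tkt and Taldo1 whose enzymes do not make NADPH themselves. Of these 13, 0 were 2-fold higher with LPS in either genotype, against 12.3% and 13.7% of all genes. The 1 lower gene was Mthfd1, in knockout at −1.02. Its control ratio was −0.82, and with 5 FPKM added the knockout ratio was −0.66. Medians were −0.10 in control and −0.18 in knockout. G6pdx, the first enzyme gene of the pentose phosphate pathway, stood at 168 and 120 FPKM in control and at 164 and 117 FPKM in knockout. Idh1 and Idh2, which encode the NADP-dependent isocitrate dehydrogenases, had log2 ratios of −0.71 and −0.72 in control and −0.84 and −0.92 in knockout, where upper-quartile scaling put them past 2-fold at −1.02 and −1.09.

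Few of the other genes widely given as NRF2 targets passed 2-fold, and those that did stood lower. In control 0 of 20 were higher and 3 lower with LPS, and in knockout 0 of 20 and 4, with medians of −0.15 and −0.21. Of all genes, 12.3% were higher and 6.5% lower in control, and 13.7% and 7.74% in knockout, so with 20 genes the contrast rests on few. The lower genes were the quinone reductase gene Nqo2 (−1.17 in control and −1.26 in knockout), the oxidative stress gene Osgin1 (−1.02 and −1.41) and the iron exporter gene Slc40a1 (−3.05 and −3.10). The carbonyl reductase gene Cbr3 passed in knockout at −1.01 and stood at −0.86 in control, or −1.02 after upper-quartile scaling, which also put Cbr1 past 2-fold (−1.09 and −1.05). With 5 FPKM added, Nqo2 (−0.79 and −0.87), Osgin1 in control (−0.88) and Cbr3 in knockout (−0.74) were under 2-fold. The heme oxygenase gene Hmox1, which hemin induces, had the same log2 ratio of 0.68 in each genotype.

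Since Slc7a11 is also a target of ATF4, genes of the amino acid response were listed. Of 13 tested in control 2 were at least 2-fold higher and 1 lower with LPS, and of 11 in knockout 2 and none, with medians of 0.32 and 0.49. Among all genes the shares were 12.3% and 6.5% in control, and 13.7% and 7.74% in knockout. Nupr1 (2.33 and 2.12) and Ddit4 (2.08 and 1.69) were higher in both genotypes, and Pck2, the mitochondrial phosphoenolpyruvate carboxykinase gene, was lower in control at −1.07, or −0.55 with 5 FPKM added; in knockout its ratio was −1.06 at levels under the 5 FPKM minimum. Atf3 was under 2-fold and differed between the genotypes, at 0.00 in control and 0.82 in knockout. Atf4 itself was at 128 and 163 FPKM in control and at 131 and 189 FPKM in knockout. Asns, the asparagine synthetase gene that ATF4 induces, was at 16.4 and 23.4 FPKM in control and at 17.2 and 23.3 FPKM in knockout.

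**Figure D4:**
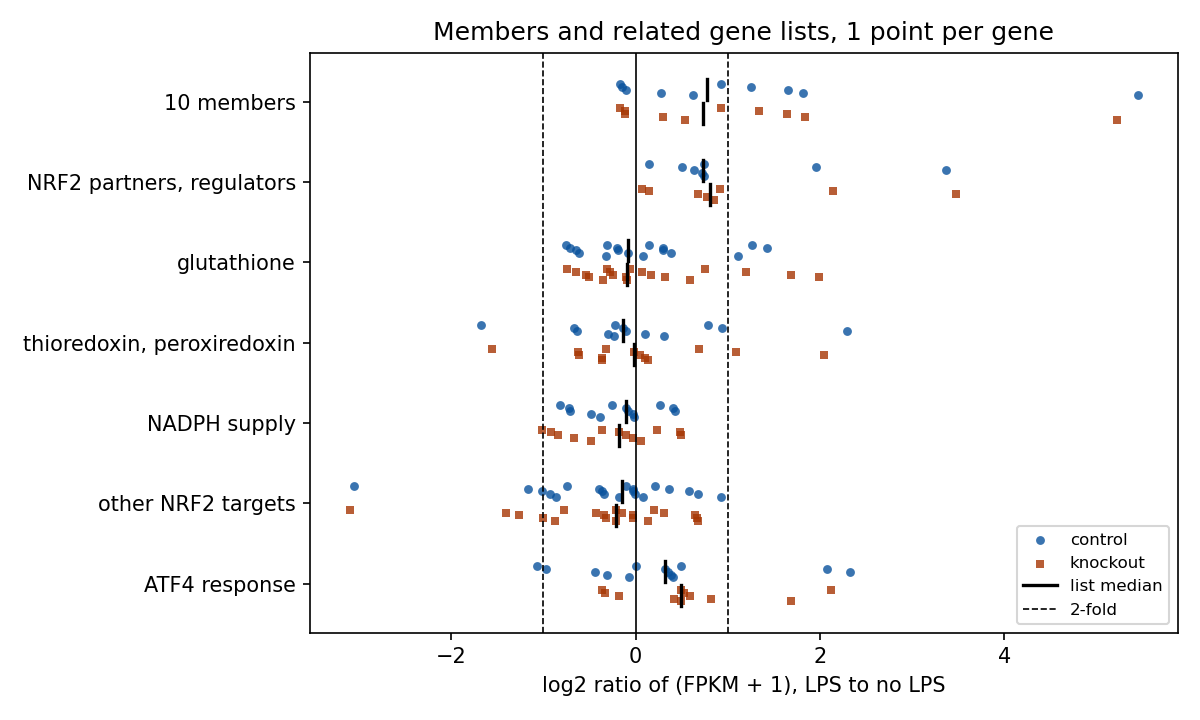
Log2 ratio of (FPKM + 1), LPS to no LPS, with 1 point per gene for the 10 members and 6 related lists, in control (circles) and knockout (squares); black bars are list medians, dashed lines mark 2-fold, and vertical spread within a row separates points only. The medians of the members and of the NRF2 partners lie between 0.73 and 0.81, and those of the glutathione, thioredoxin, NADPH and other NRF2 target lists between −0.21 and −0.02.

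Between genotypes, 2 of 81 distinct list genes were 1.5-fold higher in knockout and 0 lower without LPS, against 1.75% and 1.37% of all genes. With LPS 4 of 78 were higher and 1 lower, against 2.86% and 1.69%. Akr1b8, an aldo-keto reductase gene, was higher in knockout in both LPS states, at 147 FPKM in control and 235 FPKM in knockout without LPS and at 136 and 212 FPKM with LPS. Its log2 ratio with LPS was 0.63 as deposited and 0.54, under 1.5-fold, after upper-quartile scaling. Near copies of Akr1b8 exist, and whether reads from them entered its values was not tested. Glrx, the glutaredoxin gene, passed without LPS at 0.59, or 0.51 after upper-quartile scaling and 0.58 with 5 FPKM added. Atf3 passed with LPS, at 159 FPKM in control and 267 FPKM in knockout. Gstt1 (0.62), Mgst2 (0.72) and Sod3 (−0.70) passed with LPS at low levels and were under 1.5-fold with 5 FPKM added, at 0.45, 0.47 and −0.50. Of the NRF2 partners and regulators, Mafk came nearest without passing, at 0.41 and 0.58 (0.59 with LPS, just past 1.5-fold, under median-ratio scaling), and Bach1 was at −0.13 and −0.47. The thioredoxin and NADPH lists had 0 genes past 1.5-fold in either LPS state. Upper-quartile scaling put Ptgr1 past 1.5-fold lower in both LPS states (−0.62 and −0.65), Ephx1 without LPS (−0.59) and Gpx3 with LPS (−0.61).

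Genes with a pattern most like that of Slc7a11 were sought by the distance between centred log2(FPKM + 1) values over the 4 libraries, among 8271 other genes. The nearest were Nfkbiz, which encodes the nuclear inhibitor-like protein IκBζ (distance 0.15), Tnfaip3, which encodes the deubiquitinase A20 (0.21), the interferon-stimulated gene Oasl1 (0.21), Bcl2a1a, a BCL2 family survival gene with near-identical copies (0.26), and Gm6377 (0.28). Nfkbiz stood at 5.90 and 288 FPKM in control and at 7.58 and 355 FPKM in knockout. The likeness rests on 4 values and is mostly the size of the difference with LPS.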

How the data were processed

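RNA of 4 libraries was measured, 1 per combination of genotype and LPS. The labels' protocols name an RNeasy Mini Kit for RNA and a stranded TruSeq mRNA kit for libraries. Per the file headers, the authors deposited FPKM values. The submitters' processing notes name TopHat2 2.0.13, Bowtie2 2.2.3, SAMtools 0.1.19, Cuffnorm 2.2.1 and the mm10 build, and the annotation, strand setting and scaling are not given in the sources used here. Values as deposited were compared as log2 of (FPKM + 1), 1 library against another (Python 3.11.15, pandas 2.3.3, SciPy 1.17.1). Genes under 5 FPKM in both libraries were left out of counts, which were made at 2-fold for LPS and 1.5-fold for genotype. Fragments per FPKM came from the spacing of low values over 4561 genes with 1 GENCODE vM21 transcript, with 210 bases taken off the exonic length. Fragments of a member were counted for its shortest basic coding transcript, so intervals are wide rather than narrow. The depth estimate and the calls by fold were run on simulated libraries and recovered the depths and nearly all changed genes that these were made with. The simulation used the spacing that the estimate assumes, depths near the fitted ones, 4-fold changes and counting error only. It therefore checks the code, and cannot show that the deposited values follow that spacing or how smaller differences between cultures are called. The members and lists were chosen with earlier results of these data known. All members were named, with up to 3 genes per list and comparison by the largest ratio, and a few others for their role, chosen after their values were seen. Promoters were printed for members past 2-fold. No test was run on the data: an additive model would leave 1 residual degree of freedom, the difference of the responses, and was not fitted. Alternatives were pseudocounts of 0.1 and 5 FPKM, minimums of 0 and 20 FPKM, median-ratio and upper-quartile scaling, and other thresholds (3-fold for LPS, 2-fold for genotype). Marker lists covered 6 cell classes; 2 marker genes had no row under the symbols searched.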

Additional observations from a re-analysis of the deposited data

Results flagged for a closer look

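For 2 members the knockout to control ratio had opposite signs in the 2 LPS states, which draws attention to them although the sizes are small. Txnrd1 had a log2 ratio of −0.03 without LPS and 0.00051 with LPS, and Gsr had −0.08 and 0.01. The difference between LPS states was not tested, since each group is 1 library. The counting intervals of all 4 ratios, given above, include 1.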

How the results depend on the processing

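No alternative changed the number of members past the fold by over 1.5 times: it was 4 for LPS in each genotype (3 at 3-fold) and 0 between genotypes under every setting run. Upper-quartile scaling moved the members' median log2 ratio to 0.60 for LPS in control, 0.55 for LPS in knockout, −0.15 for knockout to control without LPS and −0.13 with LPS; the other medians, and the median difference of the LPS ratios, moved by less than 0.05 on the log2 scale. Of 40 single ratios, 2 took the other sign under that scaling and 0 under the other settings: Txnrd1 (−0.09) and Gsr (−0.08), both knockout to control with LPS. The list median of glutathione genes, 0.07 for knockout to control with LPS, became −0.02 there, and those of NRF2 partners (in both LPS states), NADPH genes and ATF4 genes (both without LPS) also went below 0. No library was left out, since each group holds 1, and no fit that pairs libraries within a genotype was run. Depth limits Slc7a11 without LPS and Nqo1 most.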
